A study of Mus musculus with 2 samples.

Results

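The genes described here mark endothelium, the cell layer that lines blood and lymphatic vessels, or belong to the pathways that make vessels grow. They are 37 genes taken by symbol from a list, of 38926 gene symbols in the deposited tables, and all 37 were found. RNA was sequenced from pleuroperitoneal folds (PPFs), the paired embryonic folds that give rise to connective tissue of the diaphragm, of wild-type mice at embryonic day 12.5. The single group held replicates 1 and 2, with 26370253 and 23255957 counts, and each pooled 2 dissected PPF pairs from embryos of strain "mixed, 129s/SvlmJ-C57/BL6J". The dissection was manual and followed removal of heart and lungs, and the libraries were made from polyadenylated RNA. With a single group, the data give levels and the spread between the 2 libraries. Nothing in the labels says whether both pools came from separate litters, so that spread may be technical.

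Endothelial cells form under vascular endothelial growth factor (VEGF), a secreted signal read by receptor tyrosine kinases on the endothelial surface, and newly formed vessels are stabilised by angiopoietins acting on Tie receptors. Transcription factors of the Ets and SoxF families keep the endothelial programme on. A subset of venous endothelium goes on to make lymphatic vessels, guided by Vegfc and its receptor Flt4. The folds are bulk tissue, so fewer endothelial cells and less RNA per endothelial cell cannot be told apart in what follows.

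Of the 37 genes, 36 were expressed, defined as at least 1 TPM (the deposited length-corrected level, that is counts divided by gene length and made to add up to 1000000 over all genes) in both libraries. In the same libraries 63% of 20719 protein-coding genes and 44.4% of all listed genes reached that level. The median over the 37 genes was 24.3 TPM, close to the 26.9 TPM median of the 13053 expressed protein-coding genes, and 17 of the 37 lay above the latter. All 37 genes together held 0.133% of the counts in replicate 1 and 0.144% in replicate 2. The defining endothelial genes Cdh5, Pecam1, Kdr, Tie1 and Tek were present in both libraries. Levels are compared between genes as TPM throughout, and differences between the libraries as log2 ratios of counts.

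**Figure D1:**
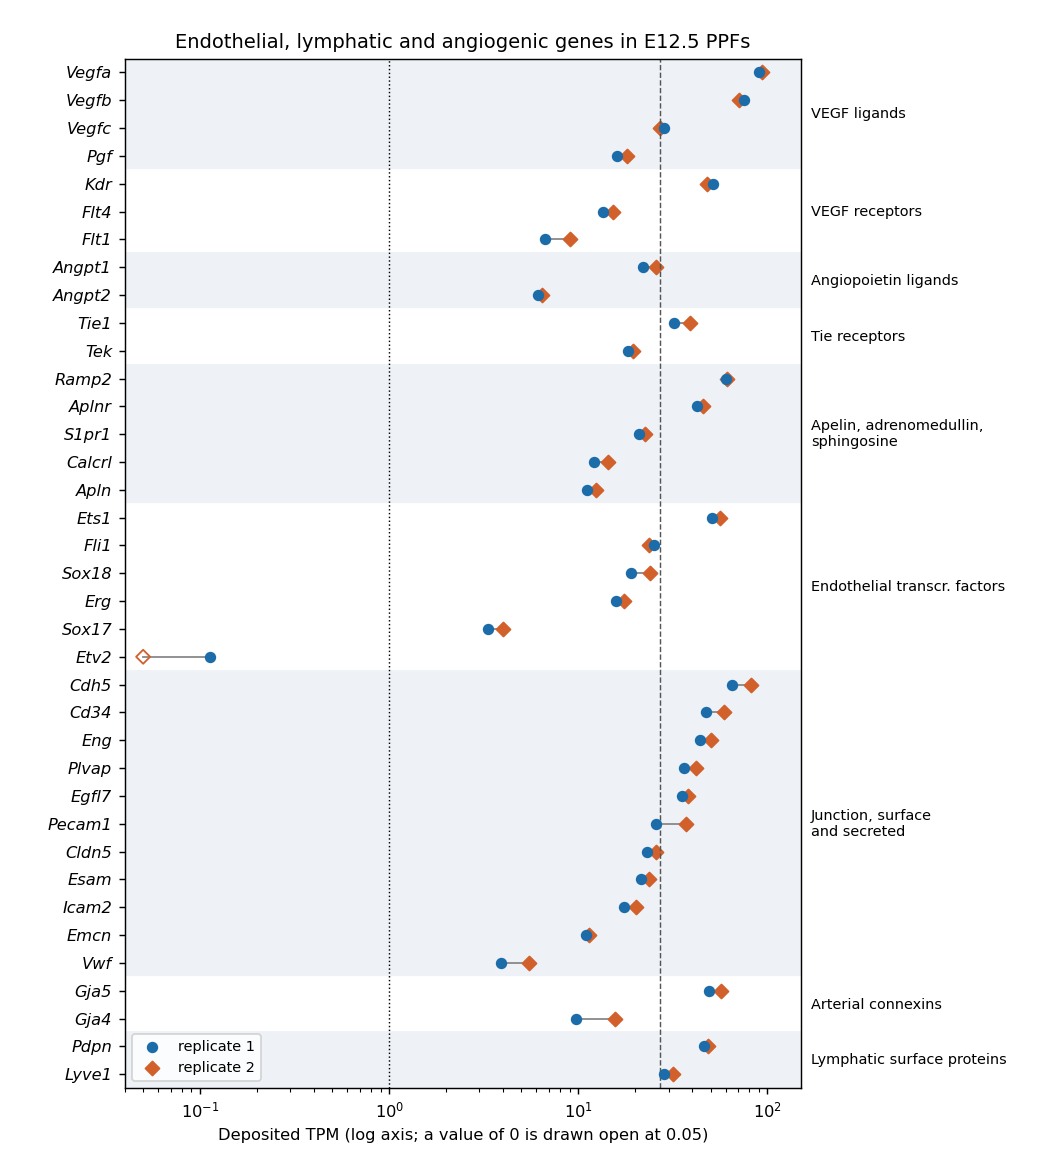
Deposited TPM on a log axis of each of the 37 genes, grouped by role, in replicate 1 (circles) and replicate 2 (diamonds). The dotted line is 1 TPM and the dashed line the 26.9 TPM median of expressed protein-coding genes. Vegfa lay farthest to the right in both libraries, and Etv2 was the one gene left of 1 TPM.

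Sequences are shown for genes whose levels or ratios the results turn on. The promoter windows run from 250 bases before to 50 bases after the gene start (RefSeq, GRCm38.p6), and 21 of the 37 genes had an entry. Printed are the windows of the VEGF receptor genes Kdr and Flt1, whose count ratios between the libraries had opposite signs, and of the connexin genes Gja4 and Gja5, which stood far apart in level. Capitals mark any match, on either strand, to the 6 motifs spelled out after the sequences.
Kdr (chr5:75978406-75978705, minus strand): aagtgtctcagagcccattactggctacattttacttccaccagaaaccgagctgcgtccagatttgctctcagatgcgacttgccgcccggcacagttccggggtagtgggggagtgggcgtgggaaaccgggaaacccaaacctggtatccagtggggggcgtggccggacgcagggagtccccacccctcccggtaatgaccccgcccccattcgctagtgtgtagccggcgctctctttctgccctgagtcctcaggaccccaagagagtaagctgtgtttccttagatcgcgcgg
Flt1 (chr5:147725962-147726261, minus strand): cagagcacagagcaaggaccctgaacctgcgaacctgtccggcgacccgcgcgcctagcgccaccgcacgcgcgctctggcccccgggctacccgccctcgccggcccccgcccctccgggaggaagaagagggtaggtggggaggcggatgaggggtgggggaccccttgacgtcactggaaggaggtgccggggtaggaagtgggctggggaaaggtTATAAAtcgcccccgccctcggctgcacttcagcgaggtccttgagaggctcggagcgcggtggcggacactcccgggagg
Gja4 (chr4:127313990-127314289, minus strand): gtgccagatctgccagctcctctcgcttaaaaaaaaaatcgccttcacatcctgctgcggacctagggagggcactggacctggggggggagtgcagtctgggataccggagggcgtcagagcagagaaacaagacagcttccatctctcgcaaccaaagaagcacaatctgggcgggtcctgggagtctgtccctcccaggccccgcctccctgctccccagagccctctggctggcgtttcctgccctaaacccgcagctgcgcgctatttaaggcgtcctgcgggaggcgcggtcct
Gja5 (chr3:97032152-97032451, plus strand): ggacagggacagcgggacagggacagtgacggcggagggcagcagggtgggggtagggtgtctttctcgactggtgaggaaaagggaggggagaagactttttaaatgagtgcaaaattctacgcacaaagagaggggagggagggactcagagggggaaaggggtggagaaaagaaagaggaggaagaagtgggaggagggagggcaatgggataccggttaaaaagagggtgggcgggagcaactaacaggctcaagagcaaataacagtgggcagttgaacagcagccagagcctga

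In these 4 windows the single match was TATAAA in Flt1, at position -31 counted from the gene start. Over the 27 windows of the 21 genes, the Ets motif CCGGAAGT was found in 0, against 3.89% of all 32851 windows. The Sox motif AACAAT was found in 4 windows, or 14.8% against 10.7% of all, including those of Calcrl, Emcn and Tek. For the forkhead motif TAAACA the count was 3, or 11.1% against 13.4% of all windows. The GATA motif AGATAA was likewise found in 3 windows, or 11.1% against 11.2%. The hypoxia element ACGTG was found in 2 windows, those of Pdpn and of a downstream Vegfa start, or 7.41% against 19.6%. The TATA box motif TATAAA was found in 2 windows, or 7.41% against 13.6%. The windows of the 21 genes held more G and C letters, with a median of 59.3% against 52.7% over all windows. How far this bears on the motif shares was not tested. Matches on opposite strands can overlap, and a match is a description of letters in a window, not a binding site.

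The VEGF ligand genes were led by Vegfa, which encodes the main growth factor of blood vessel endothelium and is made largely by the cells around vessels. Vegfa (chromosome 17, 46016993 to 46032369) stood at 90.7 TPM in replicate 1 and 93.3 TPM in replicate 2, the highest level of all 37 genes in both libraries. Vegfb, a ligand of Flt1, stood at 75.6 and 71.0 TPM. Vegfc, the ligand that drives lymphatic growth through Flt4, stood at 28.4 and 27.0 TPM. Pgf, placental growth factor, also a Flt1 ligand, was lowest of these 4 at 15.9 and 18.2 TPM. The ranges of the 4 ligands over the libraries did not overlap, so their order was the same in each. Of their summed TPM, Vegfa held 43.1% and 44.5% in replicates 1 and 2, and Vegfb 35.9% and 33.9%. Figf, a further VEGF ligand gene outside the 37, stood at 17.9 and 17.3 TPM, within the range of Pgf. It is not part of this order or of these shares.

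Among the VEGF receptor genes, Kdr, which encodes the main signalling receptor for Vegfa, was highest. Kdr (chromosome 5, 75932827 to 75978458) stood at 51.4 TPM in replicate 1 and 48.1 TPM in replicate 2. Flt4 (chromosome 11, 49609263 to 49652739), the Vegfc receptor gene, stood at 13.5 and 15.3 TPM. Flt1 (chromosome 5, 147561604 to 147726011), which encodes a receptor that binds Vegfa and also exists as a soluble decoy, stood at 6.66 and 9.07 TPM. The 3 receptors did not overlap in range. Kdr exceeded Flt1 by 7.72 times in replicate 1 and 5.31 times in replicate 2, and held 71.8% and 66.4% of the summed receptor TPM. The ratio depends on the gene length used. The deposited Flt1 length of 11583 bases is 1.68 times that of its longest annotated transcript, and with transcript lengths Kdr exceeded Flt1 by 5.64 and 3.88 times.

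The angiopoietin ligands showed the same order in both libraries. Angpt1, which encodes the Tie2 agonist made by perivascular and mesenchymal cells, stood at 21.99 and 25.63 TPM. Angpt2, which encodes a context-dependent antagonist released by activated endothelium, stood at 6.10 and 6.41 TPM. Angpt1 exceeded Angpt2 by 3.604 and 3.997 times, with no overlap between them. Their receptor gene Tek, encoding Tie2, stood at 18.4 and 19.5 TPM, and Tie1, encoding a related receptor, at 32.0 and 38.9 TPM. The Tie1 range lay above that of Tek. Of the exon bases of Angpt1, 14.2% are shared with an antisense gene, Gm17473. No source used here states whether the counting used strand, so reads of such overlapping genes cannot be told apart. Shares of exon bases are those of the merged GENCODE M21 gene models. The annotation counted is not known, and the deposited lengths of Angpt1, Sox17 and Gja5 are shorter (4256 against 5205 bases, 3154 against 4772 and 3166 against 5746), so the shares may not hold for the features counted.

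The genes of adrenomedullin, apelin and sphingosine signalling, which act on endothelium through G protein-coupled receptors, were all expressed (5 of 5). Ramp2, which encodes the partner that makes Calcrl an adrenomedullin receptor, stood at 60.5 and 60.8 TPM. Calcrl itself stood at 12.1 and 14.4 TPM, so Ramp2 exceeded its partner gene by 4.98 and 4.21 times, or by 11.1 and 9.41 times with transcript lengths. Ramp2 shares 33.4% of its annotated exon bases with the neighbouring gene Vps25 on the same strand, which stood at 90.2 and 88.6 TPM. How far this overlap raises or lowers the Ramp2 level was not tested. Aplnr, the apelin receptor gene, stood at 42.1 and 45.6 TPM. Its ligand gene Apln stood at 11.1 and 12.4 TPM, below Aplnr by 3.79 and 3.67 times. S1pr1, which encodes a sphingosine 1-phosphate receptor that steadies vessel junctions, stood at 20.9 and 22.5 TPM.

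Of the transcription factor genes, Etv2 was not expressed and the other 5 were. Etv2, which encodes the factor that starts endothelial fate in early mesoderm, had 1 count in replicate 1 and 0 in replicate 2. The single count corresponds to 0.112 TPM (exact Poisson 95% interval 0.00285 to 0.627), and 0 counts allow up to 0.484 TPM by the same interval, or 0.394 TPM at a floor of 3 counts. Such intervals cover counting error only. Ets1, an Ets factor gene also expressed in mesenchyme and lymphoid cells, stood at 50.7 and 56.1 TPM. Fli1, active in endothelium and blood cells, stood at 24.99 and 23.56 TPM. Erg, the Ets factor gene most restricted to endothelium among these, stood at 15.8 and 17.4 TPM. Ets1 thus exceeded Erg by 3.20 and 3.22 times, or by 5.01 and 5.04 times with transcript lengths. Of the SoxF genes, Sox18 stood at 18.9 and 23.9 TPM and the arterial factor gene Sox17 at 3.33 and 4.01 TPM, the lowest level among the expressed 36. Sox17 rested on 89 and 92 counts, and 16.8% of its exon bases are shared with an antisense transcript, Gm37587.

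The junction, surface and secreted protein genes were all expressed (11 of 11), with a median of 31.4 TPM. Cdh5 (chromosome 8, 104101625 to 104144502), encoding VE-cadherin of endothelial adherens junctions, stood at 64.9 TPM in replicate 1 and 82.1 TPM in replicate 2. Cd34, a surface sialomucin gene shared with blood progenitors and some mesenchyme, stood at 47.0 and 59.0 TPM. Eng, encoding a coreceptor for Bmp and Tgf-beta ligands, stood at 44.0 and 50.2 TPM. All 3 were lower in replicate 1. Plvap, the gene of the protein that spans fenestrae, stood at 36.0 and 42.0 TPM. Pecam1 (chromosome 11, 106654217 to 106715265), a junction gene shared with platelets and leukocytes, stood at 25.6 and 37.2 TPM. Cldn5, which encodes the main endothelial tight junction claudin, stood at 23.1 and 25.7 TPM. The tight junction gene Cldn5 thus lay below the adherens junction gene Cdh5 in both libraries. Esam and Icam2, both adhesion genes, stood at 21.5 and 23.7 TPM and at 17.5 and 20.2 TPM. Emcn, a sialoglycoprotein gene of venous and capillary endothelium, stood at 10.9 and 11.4 TPM. Vwf, which encodes the clotting factor stored by mature endothelium and platelets, was lowest of the 11 at 3.88 and 5.48 TPM.

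Egfl7, which encodes a protein secreted by endothelium, stood at 35.1 and 37.8 TPM. It is the host gene of miR-126, a microRNA enriched in endothelium. The mature sequence is shown because the annotated hairpins lie within exon bases of the merged GENCODE M21 model of Egfl7. They lie beyond the end of the deposited Egfl7 span (chromosome 2, 26580014 to 26589384), which is that of 1 annotated transcript. The deposited length of 3581 bases equals all merged exon bases. Sequence and position are from RefSeq (GRCm38.p6), and capitals mark the seed, bases 2 to 8.
mmu-miR-126a-3p (chr2:26591402-26591423, plus strand): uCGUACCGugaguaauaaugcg

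Polyadenylated libraries do not measure mature microRNAs, and the hairpin's own feature of 73 bases held 2 counts in replicate 1 and 1 in replicate 2. Of the exon bases of Egfl7, 11.2% are shared with other annotated genes: 264 bases with Gm20532, 73 with Mir126a and 64 with Agpat2. Mir126b, on the opposite strand, covers 58 of the bases given for Mir126a.

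Both gap junction genes of arteries were expressed, at levels far apart. Gja5 (chromosome 3, 97032416 to 97050873), encoding connexin 40, stood at 49.0 and 56.9 TPM. Gja4 (chromosome 4, 127311421 to 127314039), encoding connexin 37, stood at 9.72 and 15.7 TPM. The genes did not overlap, and Gja5 exceeded Gja4 by 5.04 times in replicate 1 and 3.63 times in replicate 2. With transcript lengths the ratios were 4.35 and 3.13. How much of the Gja5 level comes from arterial endothelium was not tested. Gja5 shares 165 exon bases (2.87%) with Gpr89 on the opposite strand.

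Both lymphatic surface genes were expressed. Pdpn, encoding podoplanin, which mesothelium and other epithelia also carry, stood at 46.0 and 48.4 TPM. Lyve1, encoding a hyaluronan receptor shared by lymphatic and liver sinusoid endothelium and by some macrophages, stood at 28.5 and 31.6 TPM. Prox1, the regulator gene of lymphatic fate, lay well below both at 7.72 and 9.64 TPM. How much of the Prox1 level comes from lymphatic endothelium and how much from other cells was not tested. Of 12 mesothelial genes, 12 were expressed, with a summed level of 670 and 711 TPM, none at 0 counts, and were led by Upk3b at 219 and 243 TPM, Podxl at 135 and 137 TPM and Wt1 at 91.6 and 89.8 TPM. Macrophage genes were expressed in 11 of 12 cases with a summed level of 603 and 553 TPM, none at 0 counts, and Cd163 alone fell short of 1 TPM. The part of mesothelium or macrophages in the levels of Pdpn and Lyve1 was not tested. Nor was it tested whether the listed genes, Podxl and Wt1 among them, are particular to mesothelium in these folds.

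In the order of all 37 genes by mean TPM, the ranges over the libraries lay apart for 11 of the 36 neighbouring pairs and overlapped for 25. Vegfa stood alone at the top. Cdh5 and Vegfb followed with overlapping ranges, at means of 73.5 ± 12.1 and 73.3 ± 3.25 TPM (SD, n = 2). Ramp2 came next at 60.6 ± 0.197 TPM, apart from its neighbours on both sides. From Ets1 (53.4 ± 3.81 TPM) through Cd34, Gja5, Kdr, Pdpn and Eng to Aplnr (43.9 ± 2.42 TPM), each gene overlapped the next. At the lower end Flt1, Angpt2 and Vwf lay apart from each other, and Vwf and Sox17 overlapped.

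The order depends on the length by which counts are divided. The deposited length was that of all annotated exon bases merged for 21 of the 37 genes, and it ranged from 0.761 to 2.23 times the longest GENCODE M21 transcript. It exceeded that transcript by more than 1.5 times for 8 genes: Ramp2, Egfl7, Vwf, Pecam1, Flt1, Ets1, Esam and Emcn. For values with transcript lengths, the deposited TPM was multiplied by the deposited length over the transcript length, without scaling to a new total. All counts were kept, also those from exons outside that transcript. A gene with a longer deposited length therefore rises by construction. With transcript lengths Ramp2 came first, at 135 and 136 TPM, and Pecam1 stood at 46.4 and 67.3 TPM. Egfl7 stood at 67.4 and 72.6 TPM and Ets1 at 84.5 and 93.5 TPM. Cdh5 then exceeded Pecam1 by 1.40 and 1.22 times, in place of 2.53 and 2.21 times with the deposited lengths. Vegfc and Pgf moved the other way, to means of 21.26 and 12.97 TPM. Across the 37 genes, which are not independent replicates, both orders had a Spearman rho of 0.953.

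**Figure D2:**
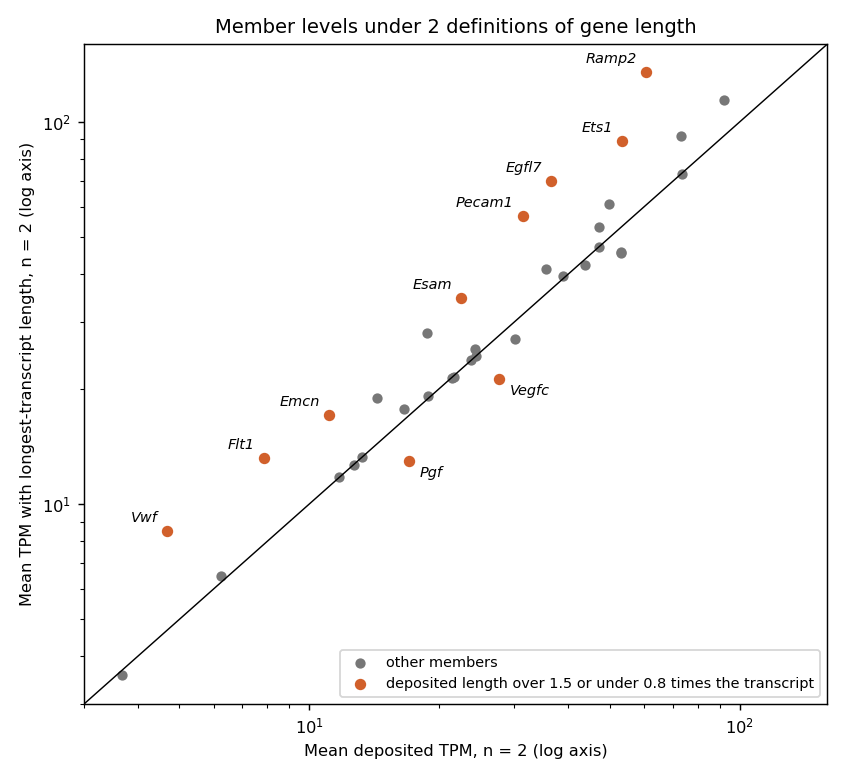
Mean deposited TPM (x) against the same mean multiplied by deposited length over longest GENCODE M21 transcript length (y), for the 36 expressed genes. Both axes are log, the line marks equality, and the y values keep all counts and were not scaled to a new total. Named in orange are the 8 genes whose deposited length exceeds 1.5 times the transcript, which lie above the line, and Vegfc and Pgf, which lie below it.

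Between the libraries, most of the vessel genes had slightly more counts in replicate 2 for its size, and the calls among them rest on taking counting error as the only noise. The log2 ratio, replicate 2 over replicate 1, exceeded 0 for 31 of the 36 genes with enough counts, against 47.2% of the 19433 genes tested, with a median of 0.12 against -0.01 over all genes tested. Each gene's counts were set against the library sizes by a two-sided exact binomial test, adjusted by Benjamini-Hochberg over the 19433 genes. It called 10 of the 36 higher (8.85% of all genes tested were called higher) and 1 lower (8.65% of all). Among the 11349 genes with counts in the range of these 36, the shares were 10% higher and 10.6% lower. None of the 36 reached a 2-fold change, which 1.26% of all genes did together with the call. This test compares these 2 libraries, not conditions. With the spread between the libraries added, by the edgeR exact test with a common dispersion, 0 of the 36 genes were called (0.417% of all genes were called higher and 0.334% lower) and 4 had an unadjusted p under 0.05. That dispersion was estimated from the same 2 libraries, so only a gene far beyond their common spread can be called. The absence of calls does not show that the libraries are alike.

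Gja4 had the largest ratio. Its 139 and 192 counts gave a log2 ratio of 0.65 (from 0.33 to 0.98 at 95%, exact binomial adjusted p = 0.000732; edgeR exact test adjusted p = 0.30). Pecam1 followed, with 1354 and 1683 counts and a log2 ratio of 0.50 (0.39 to 0.60, exact binomial adjusted p = 3.08e-19; edgeR exact test adjusted p = 0.25). Vwf had a ratio of 0.46 (0.29 to 0.63, exact binomial adjusted p = 1.53e-06) and Flt1 of 0.41 (0.25 to 0.56, exact binomial adjusted p = 2.93e-06). These 4 genes also lay above the 95th percentile, 0.31, of the ratios of the genes with counts in the same range, and none of the 36 lay below the 5th percentile, -0.29. Also called higher were Cdh5 at 0.30, Cd34 at 0.29, Tie1 at 0.25, Gja5 at 0.18, Eng at 0.15 and Ets1 at 0.11.

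By role, the junction, surface and secreted genes had 5 of 11 called higher and none lower, and all 11 had a ratio above 0 (median 0.16). In the genes of like counts 10% were called higher, and the edgeR exact test called none of the 11, nor any gene of another role. Both connexin genes were called higher. The 4 VEGF ligand genes had none called in either direction, with ratios of 0.0017 for Vegfa, -0.13 for Vegfb, -0.11 for Vegfc and 0.15 for Pgf. Kdr was the 1 gene called lower, with 3176 and 2547 counts and a log2 ratio of -0.13 (-0.21 to -0.06, exact binomial adjusted p = 0.00471), while Flt1 was called higher. Tie1 was called higher and its companion Tek was not (0.05, -0.11 to 0.20). Neither lymphatic surface gene was called, with ratios of 0.03 for Pdpn and 0.11 for Lyve1, nor were any of the 5 apelin, adrenomedullin and sphingosine genes. Whether the roles differ from each other was not tested.

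**Figure D3:**
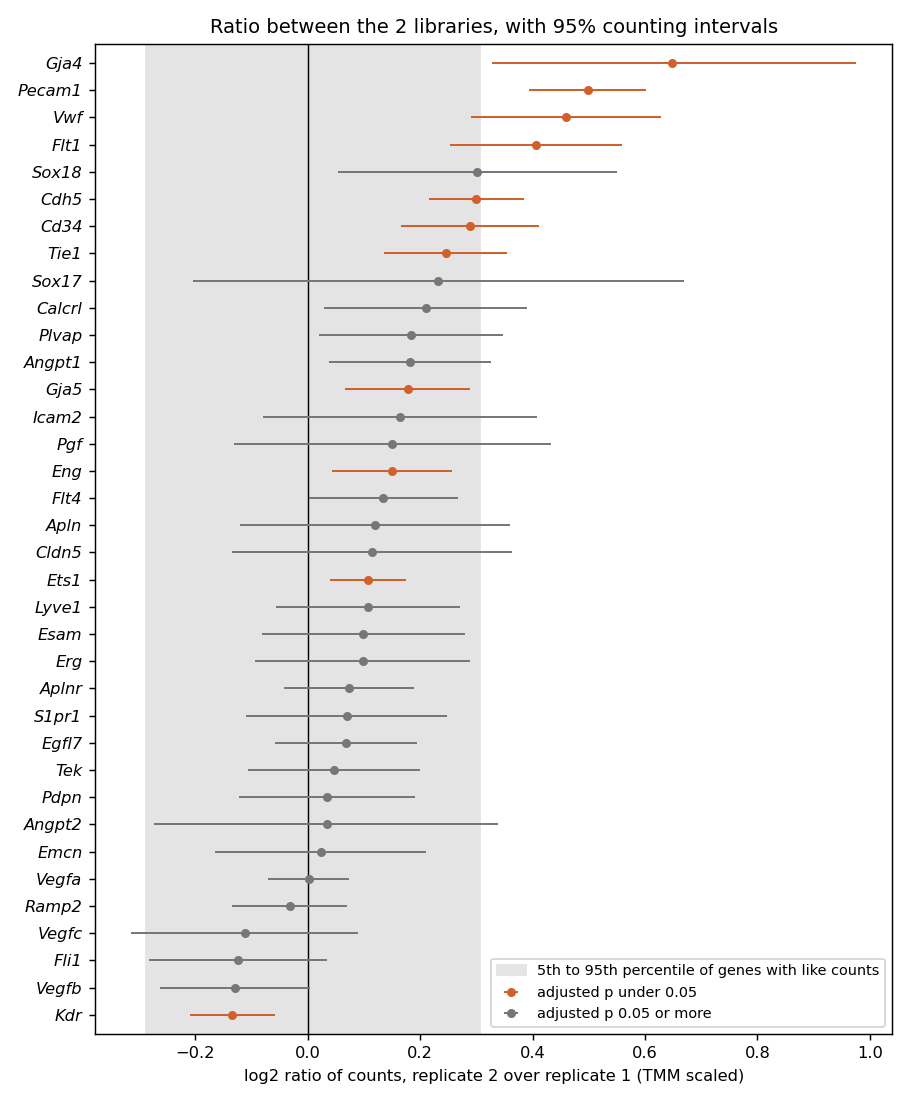
Log2 ratio of counts, replicate 2 over replicate 1 after TMM scaling, for the 36 genes with enough counts, with 95% counting intervals as bars. The grey band spans the 5th to 95th percentile (-0.29 to 0.31) of genes with counts in the same range. Gja4, Pecam1, Vwf and Flt1 lie beyond it, and Kdr is the called gene left of 0.

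Other genes of the same vessels were read from lists, which share some genes such as Nrp1. Calls in them are those of the exact binomial test, to be read against the 8.85% of all genes called higher and 8.65% called lower. The edgeR exact test, run on these lists after the data were seen, called 7 of 15 hepatoblast genes higher and no gene of the other 9 lists, in which between 0 and 3 genes each had an unadjusted p under 0.05. Of 29 other endothelial identity genes, 28 were expressed, with 7 called higher, 1 lower and a median log2 ratio of 0.08. The highest were Eva1b at 89.8 and 79.4 TPM, Elk3, an Ets family gene, at 81.1 and 87.8 TPM, and Stab1, a scavenger receptor gene that macrophages share, at 58.2 and 58.9 TPM. Those called higher included Sox7, the third SoxF gene, at 12.4 and 19.1 TPM (log2 ratio 0.59) and Cd93, an endothelial surface gene, at 23.2 and 33.2 TPM (0.47). The 1 called lower was Eva1b (-0.22), and 10 of the 29 had a ratio below 0 against 19 above. Sox7 lay between Sox18 and Sox17 in level in both libraries.

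Of 12 arterial genes, 11 were expressed, with 4 called higher, none lower and a median log2 ratio of 0.15. They were led by the VEGF and semaphorin coreceptor gene Nrp1 at 67.4 and 78.2 TPM, the arterial ephrin gene Efnb2 at 65.2 and 73.3 TPM and the netrin receptor gene Unc5b at 45.3 and 54.0 TPM. Of 11 venous and lymphatic genes, 10 were expressed and tested, with 4 called higher, 1 lower and a median of 0.0050. Ephb4, the venous receptor for Efnb2, was highest at 185 and 179 TPM. It was followed by the integrin gene Itga9 at 78.4 and 76.4 TPM and the Vegfc coreceptor gene Nrp2 at 59.0 and 68.3 TPM. Called higher were Nrp2 (log2 ratio 0.17), Prox1 (0.28), Reln (0.43) and Mmrn1 (0.37), and called lower was Ephb4 (-0.08). Ccl21a, a chemokine gene of lymphatic endothelium, had 0 counts and 1 count. Several of these genes, Nrp1, Nrp2, Efnb2 and Ephb4 among them, are also expressed in mesenchyme or nerves.

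Of 18 further genes of the VEGF, Tie, apelin, adrenomedullin and sphingosine pathways, 17 were expressed, with 4 called higher, 1 lower and a median of -0.02. S1pr3, a sphingosine 1-phosphate receptor gene of mural and mesenchymal cells, stood at 207 and 201 TPM, far above S1pr1. Hif1a, which encodes the oxygen-regulated factor that induces Vegfa, stood at 101 and 107 TPM. The exception was Angpt4, the gene of the third angiopoietin, at 0.959 and 0.589 TPM. Genes of mural cells, which wrap vessels, were expressed in 14 of 14 cases, with 5 called higher, 2 lower and a median of 0.14. They were led by Acta2 at 880 and 889 TPM, Tagln at 233 and 207 TPM and Pdgfrb at 163 and 178 TPM, which muscle or fibroblasts also express. The list and its 5 higher calls include Pdgfb, at 11.8 and 15.2 TPM, the gene of a Pdgfrb ligand and not itself a mural marker. Vtn, a plasma and matrix protein gene also made by liver, had 30 and 64 counts and a log2 ratio of 1.26.

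Markers of other cell types that share some of these genes were read in the same way, and the lists were not tested against each other. Megakaryocyte and platelet genes were expressed in 9 of 12 cases, with 1 of 11 tested called higher, none lower, a median ratio of 0.18 and a summed level of 69.1 and 74.5 TPM. They were led by the platelet chemokine gene Pf4 at 34.2 and 36.2 TPM, Gp1bb, of the receptor for Vwf, at 18.8 and 18.5 TPM and the integrin gene Itgb3 at 4.15 and 5.53 TPM, while Gp6 had 0 counts and 5. The median over the 12 was 1.73 TPM, and whether the Gp1bb reads come from platelets was not tested. Macrophage genes had none of 11 tested called higher and 2 lower, with a median of -0.10. They were led by the complement genes C1qb at 99.4 and 96.9 TPM and C1qa at 91.1 and 65.7 TPM and the adaptor gene Tyrobp at 86.5 and 75.9 TPM. Mesothelial genes had 2 called higher and none lower, with a median of 0.0044.

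Hepatoblast genes were expressed in 12 of 15 cases, with 10 called higher, 1 lower and a median of 1.22, and none was at 0 counts in both libraries. Afp stood at 58.5 and 149.8 TPM, Alb at 35.9 and 104 TPM and Apob at 0.516 and 2.02 TPM. Their summed level was 807 and 1013 TPM, of which Dlk1, which embryonic mesenchyme also expresses, held 657 and 649 TPM. Of 9 genes of liver sinusoid endothelium, 7 were expressed and 7 tested, with none called higher, 1 lower, a median of -0.07 and a summed level of 247 and 248 TPM, of which Gata4, which mesenchyme also expresses, held 173 and 178 TPM. Next were the mannose receptor gene Mrc1 at 47.0 and 45.9 TPM and Bmp2 at 11.1 and 12.1 TPM. In that list the scavenger receptor gene Stab2 stood at 1.83 and 2.00 TPM, and Clec4g had 3 counts and 0. The part of liver, platelet or macrophage RNA in the vessel gene ratios was not tested.

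**Figure D4:**
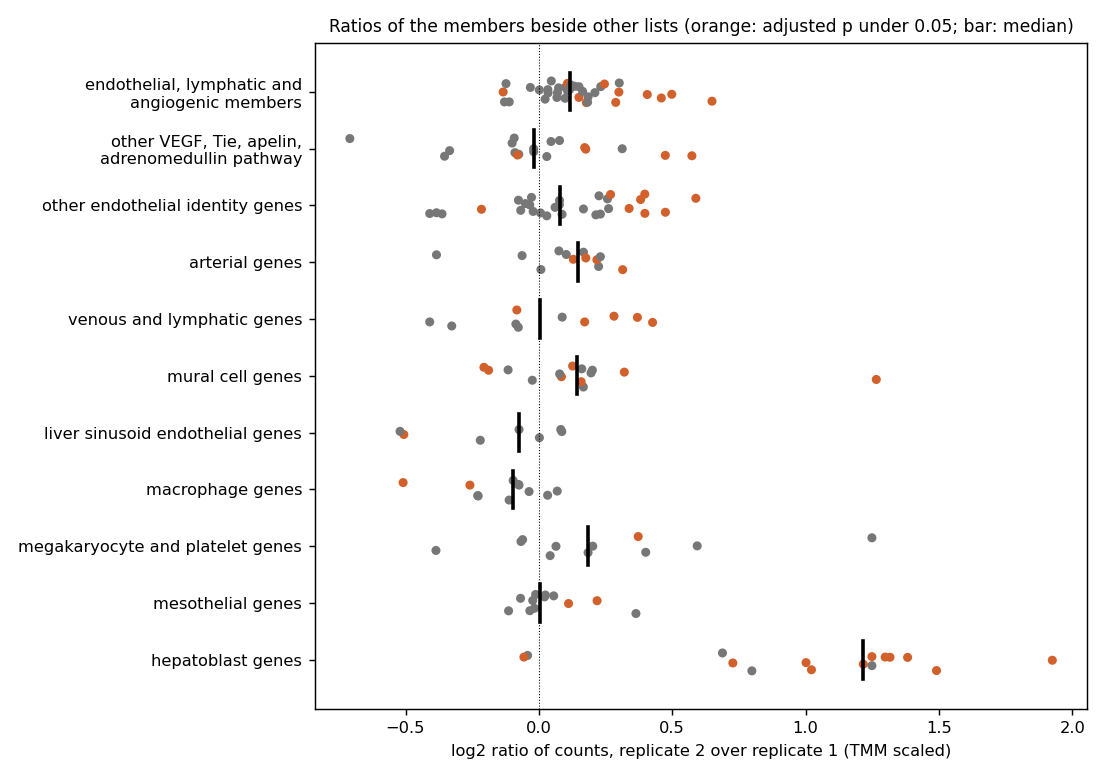
Log2 ratio of counts, replicate 2 over replicate 1, of each gene with enough counts (points; orange where the exact binomial adjusted p is under 0.05), for the vessel genes in the top line and 10 other lists below, with the list median as a black bar. The hepatoblast median lies at 1.22, whereas every other list's median lies between -0.10 and 0.18.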

How the data were processed

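STAR 2.4.0a, SAMtools 1.3, featureCounts and build mm9 are named in the submitters' processing notes, with no strand setting. The deposited raw count and the deposited TPM per gene symbol were used; the TPM equalled count over length, scaled to 1000000, with a largest difference of 4.73e-11. Of 35656 symbols found in GENCODE M21 (GRCm38), 77.4% had the span of that gene or of 1 of its transcripts, so positions are given as GRCm38; for some genes they cover 1 transcript. Features under 200 bp held 10.5% and 10.4% of the TPM.

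Ratios used counts plus 0.5 and edgeR 4.0.16 TMM factors (1.001 and 0.999), on which scale TPM ratios read 0.04 (log2) higher. The exact binomial test (scipy 1.17.1) covered genes with a summed count of at least 10, at an adjusted p under 0.05. Alternatives used DESeq2 1.42.0 size factors, library totals, other count filters, the edgeR exact test, length centring and other TPM scales. Intervals are at 95% and cover counting error only; no molecular identifiers are named in the labels.

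The members and lists were chosen with earlier results of these data known. All 37 genes are named; of each other list, the 3 highest by TPM and the 2 largest 2-fold calls. Named after their values were seen were Figf, Prox1, Reln, Mmrn1, Sox7, Cd93, Cd163, Ccl21a, Angpt4, Pdgfb, Stab2, Clec4g, Gp6 and neighbouring genes. Apela, Adgrl4 and Adgre1 were matched through older symbols.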

Additional observations from a re-analysis of the deposited data

How the results depend on the processing

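The count of vessel genes called different between the libraries, 10 higher and 1 lower, was the same with DESeq2 size factors and with library totals. It was also the same without a count filter and with at least 20 counts in each library. Leaving out the 4 genes that share over 10% of their exon bases with another gene, an alternative chosen after seeing the data, kept it too. Of all genes tested, 9.15% were called higher and 8.07% lower with DESeq2 size factors, and 8.66% and 9.03% with library totals. The shares were 6.28% and 5.90% without a count filter, and 10.9% and 10.9% with at least 20 counts in each library. Centring ratios by gene length decile gave 11 higher and 1 lower, with Ets1 lost and Plvap and Sox18 gained (7.12% and 6.64% of all genes tested were called). The edgeR exact test with a common dispersion called 0 higher and 0 lower (0.417% and 0.334% of all genes tested were called). Its construction adds the spread between the libraries. The median log2 ratio ranged from 0.11 to 0.16 over all alternatives run, including pseudocounts of 0.25 and 2. Of the 37 genes, 36 were expressed at 0.5 TPM and in each library alone, and 34 at 5 TPM. The median level was 27.1 TPM once features under 200 bp were left out of the scaling and 7.70 as RPKM, a unit with another total, and it lay between 23.1 and 25.6 TPM in single libraries. Neighbours in the order of levels lay apart in 11 to 13 pairs over the scales. No paired analysis was possible because the series holds a single group. With 2 libraries the spread of each level rests on 1 difference.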
